A study of Mus musculus with 24 samples.

Results

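The 9 genes described here, P2ry12, P2ry13, Tmem119, Cx3cr1, Csf1r, Sall1, Gpr34, Fcrls and Olfml3, are markers of homeostatic microglia, the resident macrophages of the brain in their unstimulated state. They were chosen by gene symbol from the 54532 genes of a read-count table, 1 row per gene, and all 9 had enough reads to be tested among 19667 genes. RNA was sequenced from the striatum of a single hemisphere of 24 C57BL/6 mice of 4 genotypes, with 3 males and 3 females each: wild type (WT), deletion of Tyrobp (TyrobpKO), heterozygosity for the Q175 allele (Q175), and heterozygosity for Q175 with deletion of Tyrobp (Q175_TyrobpKO). The Q175 allele, a model of Huntington's disease, is an Htt gene in which a long CAG repeat has been knocked in. Age is not given in the sources used here. Animal numbers in the labels began with T in both genotypes without Tyrobp and in no other animal, so whatever that prefix marks and the Tyrobp genotype cannot be told apart. They began with Q in all 6 Q175 animals and in WT replicate 3, and with WT in the other 5 wild types. The labels give Tyrobp-KO with no word on its construction.

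Homeostatic microglia sense nucleotides, chemokines and growth factors through a set of surface receptors. P2ry12 and P2ry13 are receptors for ADP, Cx3cr1 binds the neuronal chemokine fractalkine, and Csf1r is the receptor on which survival of microglia depends. In brain disease these genes typically decline while a disease-associated programme, which depends in part on the receptor Trem2, rises. Tyrobp, also known as DAP12, is the adaptor through which Trem2 and other microglial surface receptors signal. In whole striatum, fewer microglia and less RNA per microglial cell cannot be told apart.

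Libraries held 25.5 to 34.6 M counts, and a member had 256 to 3299 reads in a library. Levels are given in CPM, reads per M after TMM scaling (a correction for library composition), as mean ± SD over 6 libraries of a genotype. A gene was called when its adjusted p was under 0.05 (edgeR's quasi-likelihood test, Benjamini-Hochberg over all 19667 genes). Fold changes are on the log2 scale and carry their standard error. Mean Tyrobp was 7.88 ± 1.15 CPM (WT) and 8.68 ± 2.10 CPM (Q175), against 0.341 ± 0.0926 CPM in TyrobpKO and 0.260 ± 0.0423 CPM in Q175_TyrobpKO. Htt, the gene that carries the knock-in, was at 226 ± 8.65 and 215 ± 16.2 CPM in WT and TyrobpKO, and at 164 ± 15.1 and 170 ± 6.31 CPM in Q175 and Q175_TyrobpKO. No library overlapped across either division. Low libraries over the whole set of 9 were 2 in number: in TyrobpKO replicate 2 and in Q175_TyrobpKO replicate 5, 9 of 9 members lay below their median over the 24 libraries.

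In no comparison between genotypes was any of the 9 genes called. Loss of Tyrobp in Q175 mice gave the lowest median: all 9 estimates were below 0, by 0.11 to 0.32 on the log2 scale, with a median of -0.24 beside -0.0013 over all genes tested. The Q175 allele alone gave estimates on both sides of 0, with a median of 0.02 beside 0.0073 over all genes. With a library left out that median ran from -0.01 to 0.05. The plot of levels by genotype gives every library.

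**Figure D1:**
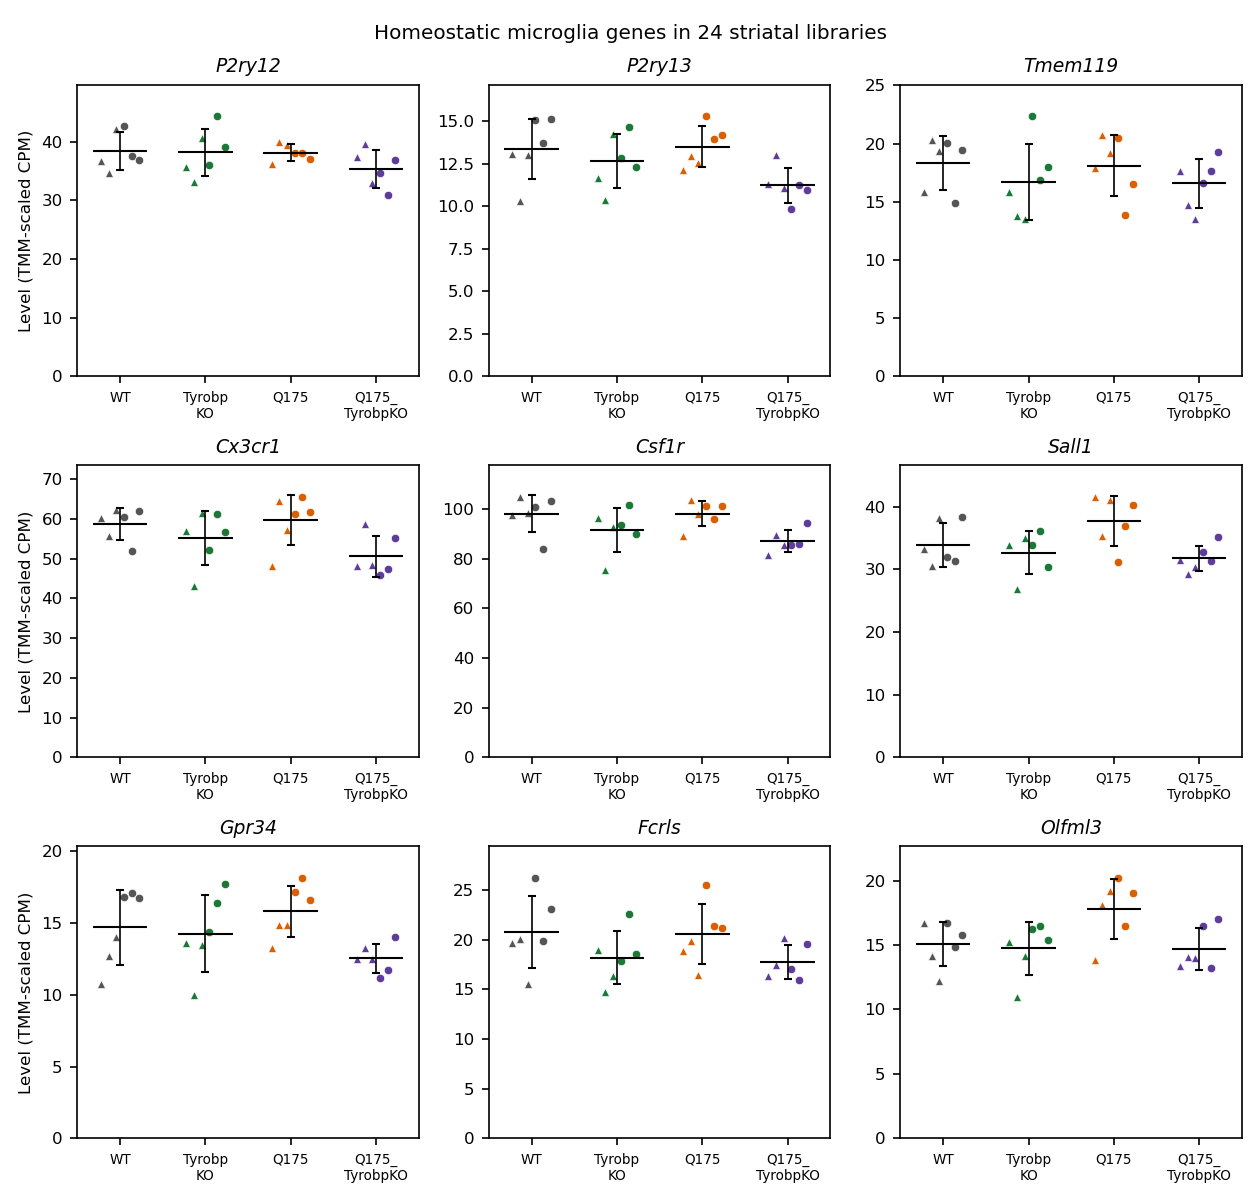
Level of each of the 9 genes in TMM-scaled CPM (vertical axes, from 0) by genotype; each point is a library (triangles male, circles female), horizontal lines are means and error bars are SD over 6 libraries. For Gpr34 and P2ry13, 5 of 6 Q175_TyrobpKO libraries lie below the lowest Q175 library; no gene of the 9 fully separates the genotypes in any of the 4 comparisons.

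Per kilobase of gene length as the table gives it, Csf1r was the highest of the 9 in WT, at 20.1 ± 1.53 CPM per kb, and Olfml3 the lowest, at 2.45 ± 0.280. Between them stood P2ry12 (15.1 ± 1.28), Cx3cr1 (13.04 ± 0.908), Fcrls (8.89 ± 1.55), Tmem119 (7.92 ± 1.004), Gpr34 (7.03 ± 1.26), Sall1 (6.44 ± 0.662) and P2ry13 (5.30 ± 0.705), all in CPM per kb. The mean ± SD ranges overlapped between P2ry12 and Cx3cr1, and between each neighbouring pair from Fcrls down to P2ry13. They did not overlap between Csf1r and P2ry12, Cx3cr1 and Fcrls, or P2ry13 and Olfml3. All 9 genes are protein coding. By the deposited table, whose coordinates are those of GRCm38, 4 of them lie on the minus strand of chromosome 3: P2ry13 (chr3:59207892-59210882), P2ry12 (chr3:59216272-59262871), Fcrls (chr3:87250758-87263738) and Olfml3 (chr3:103722222-103738001). Tmem119 (chr5:113793729-113800516), Sall1 (chr8:89027235-89044162) and Cx3cr1 (chr9:119901616-120069879) are also on the minus strand. Gpr34 (chrX:13632089-13640858) is on the plus strand, and Csf1r is on another autosome.

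Promoter windows, the 250 bases before an annotated start, were taken from RefSeq (GRCm38.p6), since the 9 estimates for loss of Tyrobp lay on the same side of 0. Windows of 6 of the 9 genes were used, 8 in all. The search was set to skip the chromosome of Csf1r, and no window of Tmem119 or Gpr34 was found. Short sequences recognised by factors of the macrophage lineage were searched on both strands. The P2ry13 window (chr3:59210883-59211132, minus strand, 0 of its bases in an annotated exon) is shown whole because it held both motifs that occurred in more than 1 window. For P2ry12 (chr3:59263171-59263200), Cx3cr1 (chr9:120068339-120068368) and Fcrls (chr3:87263536-87263565), all on the minus strand, 30 bases around a match are shown, since these windows overlap annotated exons. Capitals mark the matches, and all 4 are printed 5′ to 3′ in the direction of the gene.
P2ry13: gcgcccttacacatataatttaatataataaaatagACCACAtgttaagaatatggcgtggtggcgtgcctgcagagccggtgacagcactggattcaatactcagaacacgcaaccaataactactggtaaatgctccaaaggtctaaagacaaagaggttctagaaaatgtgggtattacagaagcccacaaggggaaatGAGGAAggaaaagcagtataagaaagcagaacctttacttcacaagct
P2ry12: cgcaggtctgcTTTGGCAAaggcagcaact
Cx3cr1: agcatCTAAAGATAGggtACCACAcaggaa
Fcrls: ACCACAgtgttctatcccagatcTGTGGTc

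The RUNX motif TGTGGT, or its reverse complement ACCACA, was in 3 of 8 windows (P2ry13, Cx3cr1 and Fcrls) and in 14% of 32817 windows of all genes. A short PU.1 core, GAGGAA, added to the search after the windows had been seen, was in 2 of 8 windows (P2ry13 and Fcrls) and in 23.3% of all. The MEF2 motif was searched in a loose form that allowed any base in its middle. This loose form was in the Cx3cr1 window (3.2% of all), where the middle of the match held a G. A stricter form, with only A or T in the middle, was not searched, so the match is not shown to be a MEF2 motif in that sense. The C/EBP motif TTGCNNAA was in the P2ry12 window (9.57% of all). The longer PU.1 motif GAGGAAGT, which overlaps the short one, and a motif bound by PU.1 with an IRF partner were in 0 of 8 windows, against 2.44% and 2.3% of all. The 3 windows of Sall1 and that of Olfml3 held no match. A match is a run of letters, not a measured binding site.

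Q175_TyrobpKO against Q175 asked what loss of Tyrobp changed in mice that carry the Q175 allele. In this comparison 0 of 9 members were called, where 0.158% of all genes were. At an unadjusted p under 0.05 (edgeR) there were 6 of 9, all lower, where 3.55% of all genes were lower and 6.04% differed in either direction. Those 6 were P2ry13, Cx3cr1, Csf1r, Sall1, Gpr34 and Olfml3. No member had all 6 Q175_TyrobpKO libraries below all 6 of Q175, a separation seen for 0.3% of all genes. For 7 of the 9, all but P2ry12 and Tmem119, every Q175_TyrobpKO library lay below the Q175 median. This is a looser criterion, and its share over all genes was not computed, so the count cannot be weighed.

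Gpr34, a receptor for lysophosphatidylserine, had the lowest estimate. Its lowest, median and highest libraries were 13.3, 15.7 and 18.2 CPM in Q175 and 11.2, 12.5 and 14.02 CPM in Q175_TyrobpKO. In WT they were 10.7, 15.4 and 17.1 CPM, and in TyrobpKO 10.02, 13.98 and 17.7 CPM. The Q175_TyrobpKO libraries were thus a narrow low group beside Q175, with only the highest reaching into the Q175 range, but they lay inside the range of WT and of TyrobpKO. The fold change against Q175 was -0.32 ± 0.10 on the log2 scale (-20.0%, 95% interval -30.3% to -8.25%; edgeR unadjusted p 0.00245, adjusted p 0.450).

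P2ry13, the second ADP receptor, was at 12.1, 13.4 and 15.3 CPM (lowest, median, highest) in Q175 and at 9.83, 11.2 and 13.02 CPM in Q175_TyrobpKO. As with Gpr34, a single Q175_TyrobpKO library reached the Q175 range. Its range was 10.3 to 15.1 CPM in WT and 10.4 to 14.7 CPM in TyrobpKO. The fold change against Q175 was -0.26 ± 0.09 (-16.4%; edgeR unadjusted p 0.00901, adjusted p 0.700). P2ry12, the ADP receptor that guides microglial processes to sites of injury, was at 36.1, 38.0 and 39.9 CPM in Q175 and at 30.9, 35.7 and 39.5 CPM in Q175_TyrobpKO. With 3 of 6 libraries inside the Q175 range, its estimate of -0.11 ± 0.07 was the nearest to 0 of the 9 (edgeR adjusted p 0.851), with a 95% interval from -16.1% to 2.63%.

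Cx3cr1, the fractalkine receptor, was at 48.2, 61.5 and 65.6 CPM in Q175 and at 46.0, 48.2 and 58.7 CPM in Q175_TyrobpKO. The low end of Q175 is a single male library, replicate 1; the other 5 were at 57.3 CPM or more. Its fold change was -0.24 ± 0.08 (-15.2%; edgeR unadjusted p 0.00741, adjusted p 0.679). Csf1r was at 89.1, 99.5 and 104 CPM in Q175 and at 81.5, 85.8 and 94.2 CPM in Q175_TyrobpKO, and 4 of 6 of the latter lay below every Q175 library. This gave -0.17 ± 0.06 (-11.3%, 95% interval -18.8% to -3.17%; edgeR unadjusted p 0.00925, adjusted p 0.708). Csf1r had the most reads of the 9, 16610 in Q175 and 14612 in Q175_TyrobpKO.

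Sall1 encodes the transcription factor that maintains microglial identity. Its libraries were at 31.1, 38.6 and 41.6 CPM in Q175 and at 29.3, 31.5 and 35.1 CPM in Q175_TyrobpKO, against medians of 32.6 CPM in WT and 33.9 CPM in TyrobpKO. Q175 thus had the highest median for this gene, but its libraries overlapped those of WT and the gene was not called against WT (edgeR adjusted p 0.265). The fold change against Q175 was -0.25 ± 0.08 (-15.8%; edgeR unadjusted p 0.00443, adjusted p 0.602).

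Olfml3, a secreted olfactomedin-like protein, was at 13.8, 18.6 and 20.2 CPM in Q175 and at 13.2, 14.03 and 17.0 CPM in Q175_TyrobpKO. Here too Q175, whose libraries also enter the comparison with WT, had the highest median. WT spanned 12.2 to 16.7 CPM and TyrobpKO 10.9 to 16.5 CPM, and the gene was not called in Q175 against WT (edgeR adjusted p 0.104). The fold change was -0.28 ± 0.09 (-17.7%; edgeR unadjusted p 0.00562, adjusted p 0.642). Fcrls, an Fc receptor-like scavenger receptor, spanned 16.5 to 25.5 CPM in Q175 and 15.9 to 20.1 CPM in Q175_TyrobpKO, and Tmem119, a transmembrane protein much used to tell microglia from other macrophages, spanned 13.8 to 20.8 and 13.5 to 19.3 CPM. Both overlapped widely between the genotypes, at -0.20 ± 0.10 for Fcrls and -0.13 ± 0.12 for Tmem119 (edgeR adjusted p 0.830 and 0.872).

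Several of these estimates rested unequally on the sexes, with 3 animals of each per genotype. P2ry13 was at a mean of 12.5 CPM in Q175 males and 11.8 CPM in Q175_TyrobpKO males, and at 14.5 and 10.7 CPM in the females. Fitted by edgeR in males alone and in females alone, its fold change was -0.09 and -0.45, that of Gpr34 -0.17 and -0.50, that of Cx3cr1 -0.13 and -0.35, and that of Fcrls -0.03 and -0.38. Sall1 went the other way, at -0.37 in males and -0.13 in females, as did Tmem119, at -0.33 and 0.06. No member was called in either sex, and the difference between the sexes was tested for the averaged deletion only.

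**Figure D2:**
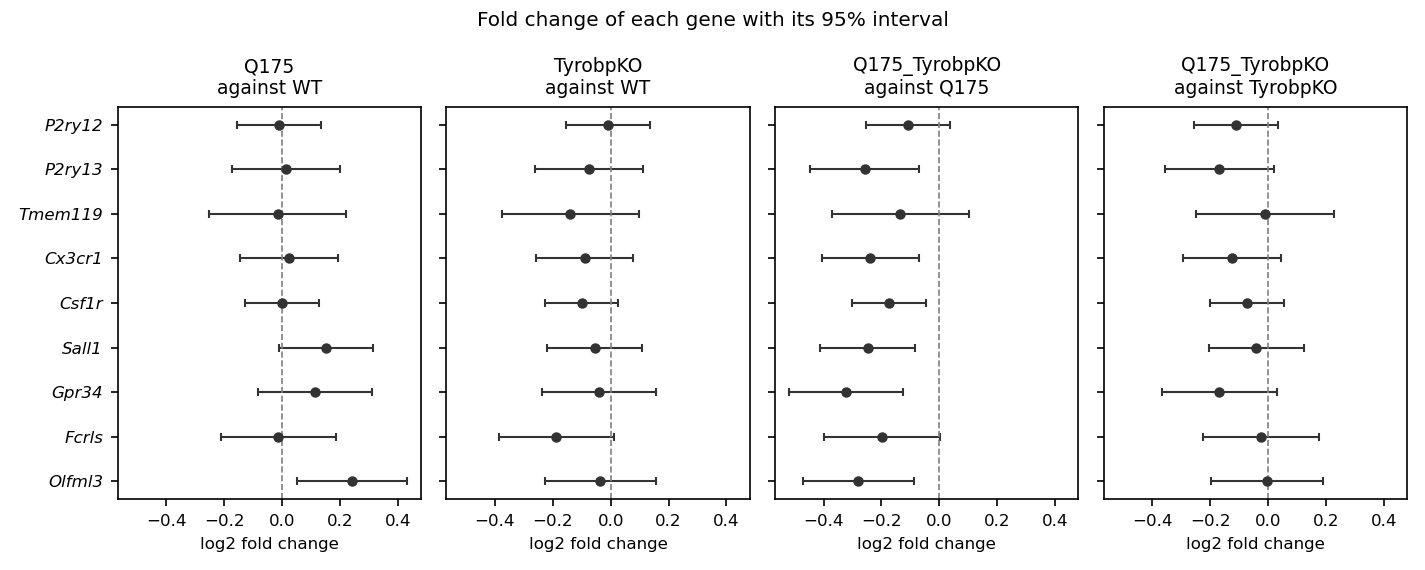
log2 fold change (horizontal axes) of each of the 9 genes in 4 comparisons of genotypes; points are estimates of edgeR's fit over 24 libraries and bars are 95% intervals, unadjusted. In Q175_TyrobpKO against Q175 all 9 points lie below 0, and the intervals of the 6 genes named above do not reach 0.

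The effect of deleting Tyrobp without the Q175 allele was read from TyrobpKO and WT. In TyrobpKO against WT 0 of 9 members were called, beside 0.117% of all genes, and 0 of 9 had an unadjusted p under 0.05 (edgeR), beside 6.45% of all genes. All 9 estimates were below 0, where 49.7% of all genes were, from -0.19 ± 0.10 (Fcrls, edgeR adjusted p 0.749) to -0.01 ± 0.07 (P2ry12). Their median was -0.07 beside 0.0009 over all genes. Of 14 genes of microglia and macrophages in general, 13 were below 0, with a median of -0.19 and 0 called. The median of the 9 ran from -0.12 to -0.03 with a library left out, the latter without TyrobpKO replicate 2. Under other settings it ran from -0.10 to -0.02. Fcrls ran from 15.5 to 26.2 CPM in WT and from 14.8 to 22.6 CPM in TyrobpKO, so that the libraries overlapped over most of their range. Tissue markers differed in the same comparison: 5 of 5 markers of cortical excitatory neurons had estimates above 0 (median 0.87), 8 of 8 striatal projection neuron markers had estimates below 0 (median -0.29), none was called by edgeR, and their part in the values of the 9 genes was not tested.

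Whether the effect of the deletion depended on Q175 was tested as an interaction. No member was called, and no gene of 19667 was (0%) by edgeR; 707 genes, 3.59%, had an unadjusted p under 0.05, DESeq2 called 2 genes and limma-voom 0. Gpr34 was the single member with an unadjusted p under 0.05 (-0.28 ± 0.14, edgeR p 0.0488, adjusted p 0.999), and 8 of 9 estimates were below 0, with a median of -0.15. In males alone that median was -0.02. The comparisons TyrobpKO against WT and Q175_TyrobpKO against Q175 are therefore not shown to differ for these genes.

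Averaged over both Q175 genotypes, 12 libraries without Tyrobp were compared with 12 with it. No member was called, beside 0.208% of all genes, and 7 of 9 had an unadjusted p under 0.05 (edgeR), all lower, beside 5.22% of all genes lower. The 9 estimates ran from -0.19 (Fcrls) to -0.06 (P2ry12) with a median of -0.16, and the 2 without such a p were P2ry12 and Tmem119. Csf1r had the smallest adjusted p of the 9 (-0.14 ± 0.04, -9.07%, 95% interval -14.6% to -3.23%; edgeR adjusted p 0.371). Without TyrobpKO replicate 2 the median was -0.13, and without Q175_TyrobpKO replicate 5 it was -0.15. Beside it the cortical markers had a median of 0.70, with 5 of 5 above 0, and the projection neuron markers a median of -0.19, with 8 of 8 below 0; 0 of either list were called, and their part was not tested.

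Q175 against WT asked what the Q175 allele changed with Tyrobp present. Of the 9 members 0 were called, beside 9.63% of all genes, and 1, Olfml3, had an unadjusted p under 0.05, beside 22.6% of all genes. Olfml3 had a mean of 15.1 ± 1.72 CPM in wild types, against 17.8 ± 2.32 CPM in carriers (0.24 ± 0.09, 18.2% with a 95% interval of 3.56% to 35.0%; edgeR unadjusted p 0.0152, adjusted p 0.104). It was called without Q175 replicate 1, a male that was the lowest Q175 library for this gene (0.29, edgeR adjusted p 0.0442), and was not called with any other library left out or under any other setting run. Sall1 followed at 0.15 ± 0.08, with means of 33.9 ± 3.49 CPM without the allele and 37.7 ± 4.06 CPM with it (edgeR adjusted p 0.265), and Gpr34 at 0.11 ± 0.10 (adjusted p 0.542).

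The receptors most used as markers of the homeostatic state had intervals that included 0 in the comparison of Q175 with WT. P2ry12 averaged 38.4 ± 3.25 CPM (WT) and 38.1 ± 1.41 CPM (Q175), with a 95% interval of the change from -10.3% to 9.73%. Csf1r was at 98.1 ± 7.47 and 98.2 ± 5.19 CPM (interval -8.43% to 9.17%). For Cx3cr1 the interval was -9.55% to 14.2%, for P2ry13 -11.2% to 15.0%, for Fcrls -13.7% to 13.8% and for Tmem119 -16.0% to 16.6%.

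Q175_TyrobpKO against TyrobpKO gave the effect of the Q175 allele without Tyrobp. No member was called, beside 5.86% of all genes, and 0 of 9 had an unadjusted p under 0.05 (edgeR), beside 18.4%. All 9 estimates were below 0, where 50.4% of all genes were, with a median of -0.07. The lowest were Gpr34 (-0.17 ± 0.10, edgeR adjusted p 0.375) and P2ry13 (-0.17 ± 0.09, adjusted p 0.342). Without TyrobpKO replicate 2 the median was -0.12, without TyrobpKO replicate 5 it was -0.03, and without replicate 1 of that genotype it was -0.05. In males alone the median was 0.0078 and in females alone -0.16. Averaged over both Tyrobp genotypes the allele gave a median of -0.03 (-0.06 to -0.0078 with a library left out, the ends being those without TyrobpKO replicate 2 and without Q175_TyrobpKO replicate 4), 0.05 in males alone and -0.09 in females alone, 0 of 9 called beside 18% of all genes, and 0 of 9 with an unadjusted p under 0.05 beside 29.7%. In Q175_TyrobpKO against TyrobpKO 6 of 6 astrocyte, 6 of 6 oligodendrocyte and 8 of 8 endothelial and mural markers were below 0 (3, 2 and 2 called). So were 7 of 8 projection neuron markers (4 called) and 5 of 5 cortical markers (0 called). Choroid plexus (5 of 5) and border-associated macrophage markers (4 of 4 tested) were above 0, with 0 called. Their part in the values of the 9 genes was not tested.

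The ligands of the receptors were examined next. Cx3cl1, which encodes fractalkine and is made mainly by neurons, fell with the Q175 allele whether or not Tyrobp was present. Its lowest, median and highest libraries were 673, 742 and 823 CPM in WT and 467, 504 and 597 CPM in Q175. In TyrobpKO they were 655, 695 and 774 CPM, and in Q175_TyrobpKO 518, 538 and 574 CPM. Every library with the allele was lower than every library without it; of all genes, 2.39% were separated that way by the allele with Tyrobp present and 2.27% without it.

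The fold change of Cx3cl1 was -0.52 ± 0.06 for Q175 against WT (-30.5%; edgeR adjusted p 1.77e-06). For Q175_TyrobpKO against TyrobpKO it was -0.38 ± 0.06 (-23.2%; edgeR adjusted p 0.000254). In males alone the latter was -0.31 with an adjusted p of 0.0804. Its receptor gene Cx3cr1 was at 58.7 ± 4.09, 59.8 ± 6.37, 55.2 ± 6.86 and 50.6 ± 5.13 CPM in WT, Q175, TyrobpKO and Q175_TyrobpKO and was not called in either comparison. Deletion of Tyrobp left Cx3cl1 uncalled both without the allele (-0.08 ± 0.06, edgeR adjusted p 0.790) and with it (0.06 ± 0.06, adjusted p 0.891). The 8 striatal projection neuron markers of the list used here (such as Drd1 and Ppp1r1b) also differed with the allele: 7 of the 8 fell in Q175 against WT (6 in males alone and 0 in females alone), their summed level was 6517 ± 1041 CPM in WT and 3661 ± 436 CPM in Q175, and their part in the level of Cx3cl1 was not tested.

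The ligands of Csf1r did not pass the test in any of the 4 comparisons. Csf1 spanned 20.5 to 25.4 CPM in WT, 19.4 to 29.1 in TyrobpKO, 19.2 to 33.1 in Q175 and 18.4 to 28.0 in Q175_TyrobpKO, and its largest estimate was 0.12 ± 0.13 in Q175 against WT (edgeR adjusted p 0.627). Il34, the second ligand, had means of 42.6 ± 4.39 (WT), 39.4 ± 3.18 (TyrobpKO), 38.6 ± 6.01 (Q175) and 36.4 ± 3.205 CPM (Q175_TyrobpKO). It ran at -0.14 ± 0.08 in Q175 against WT (edgeR adjusted p 0.331).

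**Figure D3:**
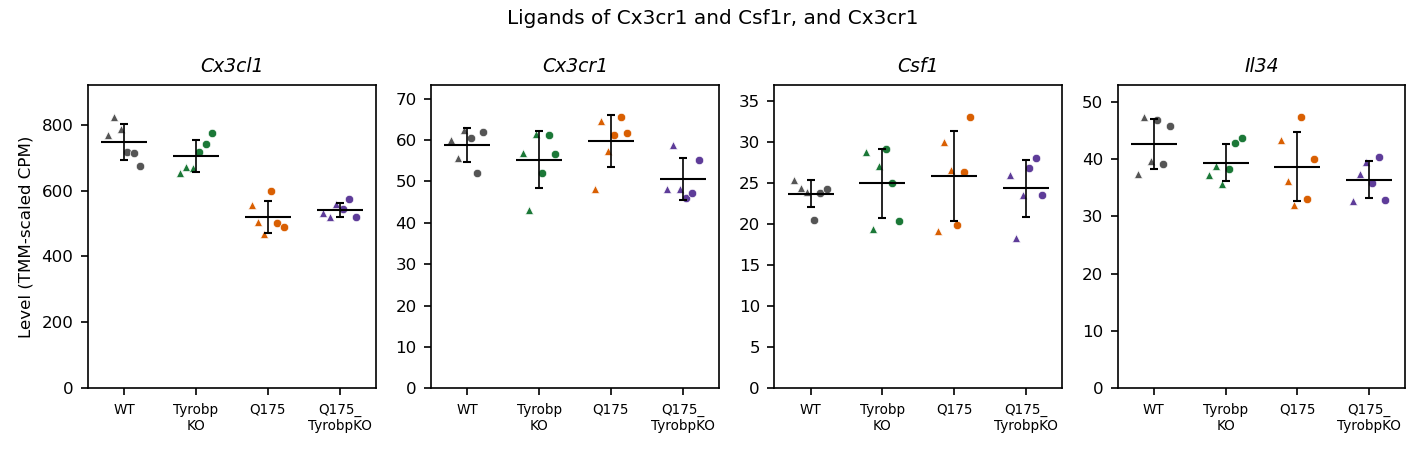
Level in TMM-scaled CPM (vertical axes, from 0) of fractalkine (Cx3cl1), its receptor Cx3cr1, and the Csf1r ligands Csf1 and Il34 by genotype; points are libraries (triangles male, circles female), lines are means and bars SD over 6 libraries. Cx3cl1 separates carriers of the Q175 allele (467 to 597 CPM) from non-carriers (655 to 823 CPM), and the other 3 genes overlap between genotypes.

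Other genes of microglia were set beside the 9 in Q175_TyrobpKO against Q175. Of 20 other genes of resting microglia, 0 were called, 18 had estimates below 0 and 7 an unadjusted p under 0.05, with a median of -0.15. Among those named by the rule, Pros1, a ligand of phagocytic receptors, stood at -0.38 ± 0.09 (edgeR adjusted p 0.118). It was called in 2 of 33 other settings, of which DESeq2 was 1 (adjusted p 0.0235). Of 14 genes of microglia and macrophages in general, 14 had estimates below 0, with a median of -0.37, and 1 was called: C1qb, a complement subunit (-0.39 ± 0.08, edgeR adjusted p 0.0221). That call was lost in 11 of 33 other settings, with adjusted p values up to 0.690. Ctss, a lysosomal protease, stood at -0.42 ± 0.09 (adjusted p 0.0570), and was called in 6 of 33 other settings.

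Of 23 disease-associated genes, 20 had estimates below 0, with a median of -0.27, and 5 fell. By the naming rule these include Lyz2, a lysozyme (-1.30 ± 0.17, edgeR adjusted p 4.88e-05), and Clec7a, a receptor for beta-glucan (-3.42 ± 0.51, adjusted p 0.000600), each lost in 1 of 33 other settings. The other 3, Cst7, Itgax and Trem2, were chosen after their values were seen, at -2.76 ± 0.54, -2.94 ± 0.57 and -0.51 ± 0.09, with calls lost in 8, 7 and 2 of 33 other settings. In the same comparison the 9 homeostatic genes spanned -0.32 to -0.11, and the difference between the lists was not tested.

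**Figure D4:**
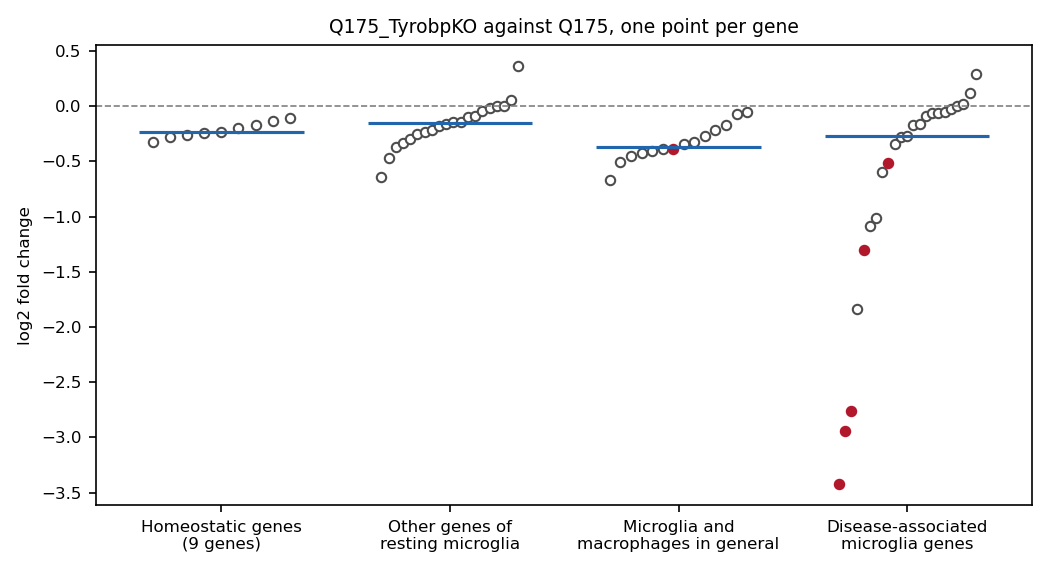
log2 fold change in Q175_TyrobpKO against Q175 (vertical axis) for the 9 homeostatic genes and 3 further lists of microglial genes, ordered by value within each list; blue lines are medians, and filled red points are genes called by edgeR. The homeostatic genes lie between -0.32 and -0.11 with none called, and the disease-associated list reaches -3.42 with 5 called.

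The same lists in Q175 against WT had medians of 0.04 for other genes of resting microglia, 0.10 for macrophages in general and 0.30 for disease-associated genes. Among other genes of resting microglia 2 rose and 1 fell. Hpgd, a prostaglandin-degrading enzyme, rose (0.50 ± 0.12, edgeR adjusted p 0.00642), as did Pros1 (0.29 ± 0.09, adjusted p 0.0384), and Mertk, a phagocytic receptor, fell (-0.22 ± 0.06, adjusted p 0.0205). Of 33 other settings, 2 lost the call of Hpgd, 5 that of Mertk and 12 that of Pros1. The rule picked Pros1 by its p in Q175_TyrobpKO against Q175, and its value in Q175 against WT was added after it was seen. Lcp1, a leukocyte actin-bundling protein, was the single gene called of the general list (0.31 ± 0.10, adjusted p 0.0490), a call lost in 26 of 33 other settings; Ctss was at 0.25 ± 0.09 (adjusted p 0.0905), called in 1 of 33 other settings. Of the disease-associated list 8 of 23 rose and 0 fell, with Timp2, an inhibitor of metalloproteinases (0.47 ± 0.06, adjusted p 3.41e-06), and Lyz2 (0.93 ± 0.17, adjusted p 0.000390, lost in 1 of 33 other settings) having the smallest p.

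TGF-beta signalling and a small set of transcription factors establish the homeostatic state, and 12 genes of each were listed. In Q175_TyrobpKO against Q175 none was called of either list. Tgfbr1 and Tgfbr2, the receptor subunits, stood at -0.27 ± 0.07 and -0.27 ± 0.08 (edgeR adjusted p 0.151 and 0.306; DESeq2 called Tgfbr1, at 0.0414), and Runx1 and Irf8 at -0.59 ± 0.20 and -0.32 ± 0.12 (adjusted p 0.664 and 0.725). In Q175 against WT, Itgav, an integrin subunit that activates TGF-beta, rose (0.21 ± 0.05, adjusted p 0.00823, lost in 2 of 33 other settings), and Cebpa, a myeloid transcription factor, fell (-0.31 ± 0.09, adjusted p 0.0302, lost in 11 of 33 other settings). Smad2 (0.15 ± 0.08) and Tal1 (0.41 ± 0.24) were not called, at adjusted p 0.245 and 0.327.

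Of 10 other purinergic and related receptors, 8 were tested and 0 called in either comparison. Adora3 (-0.53 ± 0.31) and Gpr183 (-0.35 ± 0.23) had the smallest p in Q175_TyrobpKO against Q175, and P2ry2 (-0.61 ± 0.30) and P2rx4 (0.12 ± 0.08) in Q175 against WT, with edgeR adjusted p of 0.846, 0.853, 0.223 and 0.368. Of 10 genes that act downstream of the receptors, 0 were called in Q175_TyrobpKO against Q175, where Dock2 was at -0.28 ± 0.12 and Vav1 at -0.22 ± 0.13 (adjusted p 0.818 and 0.843). In Q175 against WT the G protein subunit Gnai2 rose (0.19 ± 0.05, adjusted p 0.0202, lost in 5 of 33 other settings), and the potassium channel gene Kcnk13, which acts with P2ry12, was at -0.36 ± 0.12 (adjusted p 0.0629) and was called in 6 of 33 other settings.

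Markers of other cells that could contribute were read beside these results. Summed over its 14 genes, the list of macrophages in general reached 289 ± 23.2 (WT), 252 ± 30.5 (TyrobpKO), 318 ± 38.6 (Q175) and 247 ± 26.5 CPM (Q175_TyrobpKO). The 9 homeostatic genes summed to 311 ± 17.8, 294 ± 30.1, 319 ± 14.9 and 278 ± 14.9 CPM in the same order. Markers of border-associated macrophages (9 genes, 4 tested) summed to 23.9 to 37.9 CPM over all libraries, with 0 called in the comparison of Q175_TyrobpKO with Q175. Those of blood leukocytes (12 genes, 1 tested) summed to 0.294 to 3.25 CPM; Ccr2, which marks monocytes, was at a mean of 0.145 CPM or less in each genotype and had no read in at least 1 library of each. In Q175 against WT the 1 leukocyte marker tested, S100a9, rose (2.49 ± 0.73, edgeR adjusted p 0.0284), a call lost in 8 of 30 other settings that gave an adjusted p.

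Tissue markers varied more. Choroid plexus markers (5 genes) summed to 4077 CPM in Q175 replicate 3 and to 35.6 to 472 CPM in the other 5 Q175 libraries, against 36.8 to 73.5 CPM in WT and 40.9 to 581 CPM in Q175_TyrobpKO. In Q175_TyrobpKO against Q175 the list median was -1.11 with 0 called, and without Q175 replicate 3 it was 0.72; the medians of the summed level were 98.6 CPM in Q175 and 126 CPM in Q175_TyrobpKO. In Q175 against WT 1 of the 5, Ttr, rose (4.30 ± 1.30, edgeR adjusted p 0.0408). Without Q175 replicate 3 Ttr was at 1.88 (adjusted p 0.250), and its call was lost in 15 of 32 other settings that gave an adjusted p. All 5 markers had an unadjusted p under 0.05 (edgeR) in Q175 against WT, beside 22.6% of all genes. For the allele averaged over both Tyrobp genotypes, with Q175 replicate 3 included, edgeR called 4 of 5 higher, with a list median of 2.20. Markers of cortical excitatory neurons (5 genes) summed to 14.4 to 725 CPM in Q175 and 12.1 to 823 CPM in Q175_TyrobpKO, with a list median of 0.48 and 0 called; with a library left out that median ran from 0.18 (without Q175_TyrobpKO replicate 1) to 1.19 (without Q175 replicate 1). The part of these markers in the values of the 9 genes was not tested.

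Sex was examined because each genotype held both. In females against males 0 of 9 members were called, beside 0.0814% of all genes, and 3 of 9 had an unadjusted p under 0.05 (edgeR), all higher in females, beside 2.28% of all genes higher and 4.05% in either direction. Gpr34 had the 28th smallest p of all genes tested (0.26 ± 0.07, 19.9%, 95% interval 8.78% to 32.1%; edgeR unadjusted p 0.000684, adjusted p 0.464). Its female and male means were 16.9 and 12.5 CPM in WT, 16.2 and 12.4 in TyrobpKO, and 17.3 and 14.3 in Q175, but 12.3 and 12.8 in Q175_TyrobpKO. The gene lies on the X chromosome. Fcrls (0.21 ± 0.07) and Olfml3 (0.17 ± 0.07) were the other 2. Estimates above 0 were also those of 14 of 14 genes of macrophages in general (1 called) and 20 of 23 disease-associated genes (0 called). So were 8 of 8 projection neuron and 6 of 6 oligodendrocyte markers, while 8 of 8 endothelial and mural and 5 of 5 choroid plexus markers were below 0. None of these markers was called, and their part was not tested.

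The averaged effect of Tyrobp deletion was also compared between the sexes. No member was called, beside 0.0203% of all genes, and 1 of 9 had an unadjusted p under 0.05 (edgeR), beside 8.77%. That gene was Tmem119 (0.42 ± 0.15, edgeR unadjusted p 0.00835, adjusted p 0.446). Its male means were 18.5 CPM in WT and 14.4 in TyrobpKO, 19.3 in Q175 and 15.3 in Q175_TyrobpKO. Its female means were 18.1 and 19.1 CPM, and 16.9 and 17.8 CPM, in the same order. Each of these means rests on 3 animals.

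Within genotypes the 9 genes varied together to a degree. After genotype and sex means were removed, the median of the 36 pairwise Pearson correlations of log2 CPM over 24 libraries was 0.33, with 33 pairs above 0 and a range from -0.18 (Sall1 with Fcrls) to 0.76 (Cx3cr1 with Csf1r). Csf1r and Cx3cr1 were the genes most like the mean of the other 8 (r of 0.78 and 0.74). Tmem119 (0.14) and Sall1 (0.22) were the least like it. These values share libraries and library scaling and are descriptions over 24 points.

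**Figure D5:**
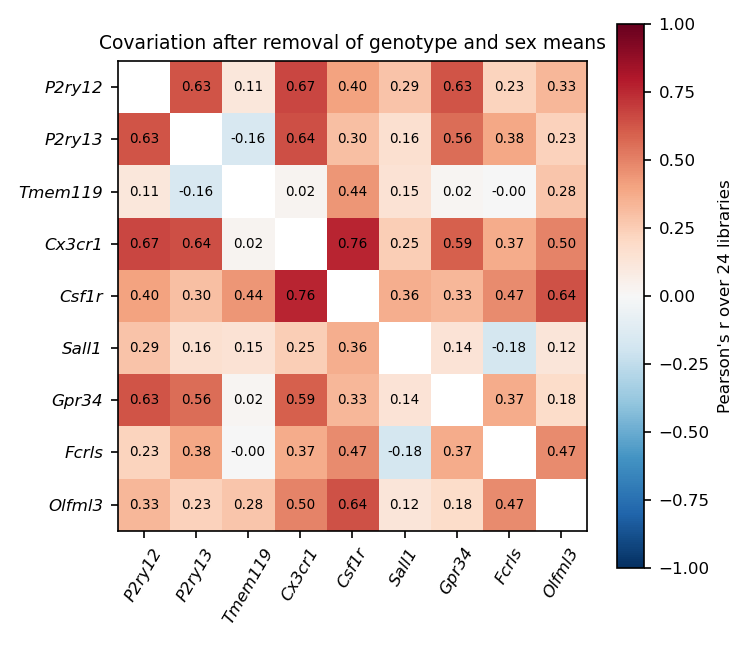
Pearson's r between log2 CPM of each pair of the 9 genes over 24 libraries, after genotype and sex means were removed (colour and printed value, from -1 to 1). P2ry12, P2ry13, Cx3cr1 and Gpr34 form a block with r of 0.56 to 0.67, and the row of Tmem119 holds values from -0.16 to 0.44.

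Of 15481 other genes at a mean of at least 1 CPM, the 6 whose residuals were most like the mean of the 9 included Csf3r (r of 0.84), Papss2 (0.84), Lair1 (0.83), Eef1a1 (0.83) and Hhip (0.82), over the same 24 libraries. For single members the closest 2 were F3 and Acbd5 for P2ry12 (0.82 and 0.80), Pecam1 and Clpx for P2ry13 (0.83 and 0.80), Gm16364 and Irf2bp1 for Tmem119 (0.82 and 0.75), S1pr1 and Lair1 for Cx3cr1 (0.87 and 0.85), and Carhsp1 and Tmbim6 for Csf1r (0.85 and 0.83). For Sall1 they were Gja1, on the astrocyte list, and Abca2 (0.83 and 0.80). For Gpr34 they were Rpl10a-ps1 and mt-Nd3 (0.85 and 0.76), for Fcrls Dut and Eif3f (0.77 and 0.76), and for Olfml3 Limd1 and Rnf144a (0.77 and 0.75). All were picked as the highest of 15481 correlations over 24 libraries. How high such a pick reaches by chance was not tested, so none is shown to vary with a member.

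Some of the 9 overlap other genes. P2ry12 and P2ry13 lie inside Med12l, and Gpr34 inside Cask, each on the opposite strand; Cx3cr1 overlaps Wdr48, Gorasp1, Csrnp1, Ttc21a and 5 genes at under 1 CPM, and Csf1r overlaps Hmgxb3 and Mir6983. Use of strand in counting is not given in the sources used here, so reads of such pairs may be uncertain. In Q175_TyrobpKO against Q175 the fold changes were -0.00037 for Med12l and -0.04 for Cask (edgeR adjusted p 0.999 and 0.922), 0.05 for Wdr48 and 0.02 for Gorasp1 (0.875 and 0.963), 0.39 for Csrnp1 and -0.02 for Ttc21a (0.725 and 0.997), and -0.05 for Hmgxb3 (0.885). None of these was called.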

How the data were processed

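RNA from 24 striata was sequenced on an Illumina instrument, 1 library per animal, per the labels' protocols. The authors deposited whole-number read counts per gene with no normalization. The submitters' processing notes name STAR, featureCounts and DESeq2 without versions or roles, and the build GRCh38, a human build; the gene IDs and coordinates in the table are those of mouse GRCm38, and 98.3% of 54532 genes had the start and end of GENCODE M21. Use of strand is not given in the sources used here.

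Counts were scaled by TMM and fitted with edgeR 4.0.16 in R 4.3.3 (robust quasi-likelihood, genotype means plus sex, all 24 libraries in 1 fit). The default filter on low counts left 19667 genes, over which p-values were adjusted by Benjamini-Hochberg. The difference of the Tyrobp effect between sexes used a mean per genotype and sex. The procedure was tested on simulated data. Of 60 pairs of libraries within genotypes, none matched within sampling noise: chi-square per gene averaged 6.89 to 42.59 over genes with at least 20 reads in a pair, above the value of 1 that counting alone gives. Replicate numbers were given in accession order and pair no samples.

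The alternatives were DESeq2 1.42.0, limma-voom (limma 3.58.1), another normalization (RLE), no filter, no sex term, only the libraries compared, each sex alone, no robust estimation, and each library left out in turn. Recomputing the sex difference of the deletion, the tissue marker lists, S100a9, Ttr, Cst7, Itgax and Trem2 under these settings was added after seeing the data. The members and gene lists were chosen with earlier results of these data known. Named genes are the 9 members, Tyrobp, Htt, the 3 ligands, per list the 2 genes of smallest p in Q175_TyrobpKO against Q175 and in Q175 against WT, the genes most like the members (6 for their mean, 2 for each), and genes that overlap a member; cell type markers named beside them were chosen after their values were seen. Levels per kb use the gene length of the deposited table. One gene that this rule names is not reported here.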

Additional observations from a re-analysis of the deposited data

Results flagged for a closer look

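Csf1r in WT had a low library: replicate 5, a female, was at 84.0 CPM, and the other 5 WT libraries were at 97.4 to 105 CPM. The gap to the nearest of the others was 0.640 of the range of the 6 libraries, against a critical value of 0.625. This was 1 of 36 combinations of gene and genotype examined, and chance alone flags about 1 in 20.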

How the results depend on the processing

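No member was called with a library left out or under the other settings run (9 for each pair of genotypes, 8 for both averaged effects and the interaction of Q175 and Tyrobp, and 5 for sex and for the sex difference of the deletion, the last added after seeing the data), with 1 exception: in Q175 against WT the number called ran from 0 to 1, and it was 1 (Olfml3) without Q175 replicate 1. Signs changed in 138 of 2574 values of members, in 8 of which the estimate had been more than 1 standard error from 0. In females alone Tmem119 reversed to 0.067 in TyrobpKO against WT, 0.065 in Q175_TyrobpKO against Q175 and 0.066 in the averaged deletion; P2rx4 reversed to -0.057 in Q175 against WT and Cx3cl1 to 0.083 in TyrobpKO against WT. In males alone P2ry12 (0.0078) and Gpr34 (0.044) reversed in Q175_TyrobpKO against TyrobpKO, P2ry12 (0.016) and P2ry13 (0.0067) in the averaged Q175 effect, and Cx3cr1 (0.011) in the interaction, whose median over the 9 moved from -0.15 to -0.017. The median in Q175_TyrobpKO against Q175 ran from -0.24 to -0.21 with a library left out and from -0.26 to -0.17 under other settings. The cause was not tested, beyond the fewer samples of each sex.

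Counts of all genes called moved by over 1.5 times as follows. Males alone and females alone gave 759 and 187 (from 1893) in Q175 against WT, 65 and 8 (from 23) in TyrobpKO against WT, 11 and 11 (from 31) in Q175_TyrobpKO against Q175, 104 and 290 (from 1153) in Q175_TyrobpKO against TyrobpKO, and 1242 and 1195 (from 3544) for the averaged Q175 effect. Females alone gave 19 (from 41) for the averaged deletion. DESeq2 called 52 in Q175_TyrobpKO against Q175, 84 for the averaged deletion and 2 for the interaction, where edgeR without robust estimation called 1 and a library left out 0 to 2. For the sex difference of the deletion the count (4) was 44 by DESeq2, 12 without a filter, 1 without robust estimation and 0 to 8 with a library left out. No paired analysis was possible because the labels give the genotypes no shared replicate numbers.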
